A study of Mus musculus with 9 samples.

Results

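Serpins are protease inhibitors, and 6 of their genes were followed here in activated CD8 T cells, namely Serpinb1a, Serpinb6a, Serpinb6b, Serpinb9, Serpina3f and Serpina3g. They were picked by name among the 24060 genes of the expression table, which holds 63 serpin symbols, and all 6 were found. RNA came from 3 transnuclear lines, R7-I, R7-II and R7-III, with 3 libraries per line and 9 in all. Each line was derived by nuclear transfer from 1 CD8 T cell specific for the Toxoplasma gondii peptide ROP7, so every line stands for 1 T cell receptor, expressed from its endogenous loci on a BALB/c background with intact Rag2. All 9 libraries shared the same treatment. Splenocytes were cultured overnight with ROP7 peptide (10 µM) plus IL-2 (10 ng/ml). Afterwards live CD3+ CD8+ cells that bound the ROP7 tetramer were sorted. The labels order the affinity for ROP7 as R7-I above R7-III above R7-II and the self-reactivity as R7-III above R7-I above R7-II, and the comparisons ask how clones that differ in these respects differ in serpin mRNA. The animals' ages are not given in the sources used here, and unstimulated cells were not analysed here.

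A serpin offers a reactive loop as bait. When the target protease cuts it, the serpin changes shape and traps the protease in a covalent complex, so that each inhibitor molecule is used up. Clade B serpins such as Serpinb9 stay inside the cell, where in cytotoxic lymphocytes they guard against granzymes that leak from the cell's own granules, and several clade A genes of the Serpina3 cluster also code for intracellular inhibitors in the mouse.

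Serpinb6b (gene ID 20708) and Serpinb9 (20723) are neighbours on chromosome 13, and Serpina3f (238393) and Serpina3g (20715) are neighbours on chromosome 12. Their promoters are shown because the first pair had the largest differences between clones and the second pair are adjacent genes of similar sequence. Both genes of the second pair had their lowest mean in R7-III. Their means of R7-I and R7-II stood in opposite order, but the difference between these clones did not pass the threshold given below for either gene. Serpina3f could be tested only without the filter on low genes. Each sequence covers 250 bases before to 50 bases after an annotated start (RefSeq, GRCm38.p6, the build of mm10), and all 4 lie on the plus strand. Capitals mark matches to 5 motifs searched on both strands, which are TTCNNNGAA (a gamma-activated site, found in 8.3% of 32851 mouse promoter windows of this length), GAAA and GAAA set 2 bases apart (the core of an interferon-stimulated element, 3.44%), GGGA and CC set 4 bases apart (an NF-kappa-B-like site, 20.7%), GGTGTGA (a T-box half-site, 3.98%) and TGANTCA (an AP-1 site, 7.81%).
Serpinb6b, chr13:32965011-32965310: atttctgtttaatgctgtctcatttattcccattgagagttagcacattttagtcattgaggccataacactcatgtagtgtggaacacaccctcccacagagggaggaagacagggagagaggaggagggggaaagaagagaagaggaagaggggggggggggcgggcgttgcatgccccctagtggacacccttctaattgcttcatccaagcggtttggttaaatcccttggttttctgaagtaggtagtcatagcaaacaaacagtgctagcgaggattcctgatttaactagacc
Serpinb9, chr13:33004291-33004590: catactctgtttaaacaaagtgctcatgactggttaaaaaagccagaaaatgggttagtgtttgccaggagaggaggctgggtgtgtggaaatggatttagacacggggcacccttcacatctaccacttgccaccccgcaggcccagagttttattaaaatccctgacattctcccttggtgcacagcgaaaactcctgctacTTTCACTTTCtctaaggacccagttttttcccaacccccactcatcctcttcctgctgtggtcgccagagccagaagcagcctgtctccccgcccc
Serpina3f, chr12:104214294-104214593: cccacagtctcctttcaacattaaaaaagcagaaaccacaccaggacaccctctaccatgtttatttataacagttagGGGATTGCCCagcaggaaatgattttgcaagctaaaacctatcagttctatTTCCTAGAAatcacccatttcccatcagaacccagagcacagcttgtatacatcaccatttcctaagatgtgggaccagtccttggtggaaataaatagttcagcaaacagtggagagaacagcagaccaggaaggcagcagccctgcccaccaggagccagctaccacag
Serpina3g, chr12:104235897-104236196: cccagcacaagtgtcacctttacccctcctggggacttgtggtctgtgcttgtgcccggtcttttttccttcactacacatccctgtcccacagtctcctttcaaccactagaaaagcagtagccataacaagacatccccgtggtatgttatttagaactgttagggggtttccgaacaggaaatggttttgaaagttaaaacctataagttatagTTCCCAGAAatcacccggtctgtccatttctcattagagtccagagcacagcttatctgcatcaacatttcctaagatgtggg

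The Serpinb9 window held TTTCACTTTC, an interferon-stimulated core read on the other strand, 46 bases before the start. The Serpinb6b window held none of the 5 motifs. The starts used for Serpinb6b and Serpinb9 lie inside the gene spans given below, not at their lower ends. No window at another start of these genes was searched. The gamma-activated site was matched by TTCCTAGAA 121 bases before the start of Serpina3f and by TTCCCAGAA 33 bases before that of Serpina3g. The Serpina3f window also matched the NF-kappa-B-like pattern as searched here, with GGGATTGCCC 172 bases before its start. The Serpina3g window holds GGGGGTTTCC, which has G in place of the A of that pattern and so was not marked. Whether either window holds an NF-kappa-B site was not tested. These matches describe letters in the windows and are not evidence of binding. A second RefSeq start of Serpina3f, 89 bases further on, gave the same TTCCTAGAA. For Serpinb6a (gene ID 20719, minus strand) RefSeq lists a start with TTCCGGGAA 77 bases before it and 20 bases after it and TTTCGATTTC 84 bases before it, and another start with GGGAGCGGCC 19 bases after it. Serpinb1a (66222) is named only.

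Values are TPM, the length-corrected share of a gene among the transcripts of a library, scaled to the same total in each. This unit keeps no depth, so the reads behind a value are unknown and no counting interval is given. Tests were run with limma on log2(TPM + 1) over the 11330 genes whose maximum TPM was above 1, with Benjamini-Hochberg adjustment over all of them and a threshold of 0.01, and fold changes on this scale understate those of low genes. The labels call the libraries biological replicates without saying whether each came from its own mouse, so the p-values measure the spread between these libraries. In RNA from bulk cells, fewer expressing cells and less RNA per cell cannot be told apart.

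R7-II stood apart from both other clones over the whole transcriptome. The threshold was passed by 56.1% of all genes tested for R7-II versus R7-I, by 53.6% for R7-II versus R7-III and by 8.41% for R7-III versus R7-I. The median log2 fold change over all genes was 0.17, 0.12 and 0.045 in the same order, a shift that median-of-ratios scaling removed. The sorted cells carried T cell genes throughout, with the summed TPM of 8 T cell markers between 1951 and 1991 in R7-I, 2843 and 2874 in R7-II, and 2109 and 2175 in R7-III. Most markers of other cells were low, and several sets were higher in R7-II. Summed over 8 B cell markers the TPM was 8.58 to 15.9 in R7-I, 35.3 to 73.6 in R7-II and 5.1 to 8.01 in R7-III, over 8 MHC class II genes it was 33.3 to 51.8, 116 to 190 and 25.0 to 29.5, and over 7 myeloid markers of a list of 8 it was 0.46 to 1.08, 17.5 to 70.3 and 1.75 to 3.05. All 8 B cell and all 8 MHC class II genes, and 3 of 6 tested myeloid genes (Lyz2, Csf1r and Fcer1g), were called higher in R7-II in both of its comparisons. Of all genes, 40.6% were called higher in R7-II relative to R7-I and 35.6% relative to R7-III. Among these markers, Cd22, Blk, Fcer2a, Ciita, Csf1r and Fcer1g were above 1 TPM only in R7-II and entered the test only through it. Neutrophil markers summed to 15 to 17.3, 19.0 to 31.0 and 13.9 to 16.1 TPM, most of it Cxcr2 (0 of 4 tested genes called higher in R7-II relative to R7-I and 2 relative to R7-III), CD4 T cell markers to 3.36 to 4.11, 4.03 to 5.81 and 5.62 to 8.01 TPM, and the 4 NK cell markers to at most 0.17 TPM. S100a9, a neutrophil marker called higher in R7-II relative to R7-III, also entered the test only through R7-II. Among the markers at 0 in every library of a clone were Cd14, Camp, Ltf and Retnlg in R7-I and Camp, Retnlg and Ncr1 in R7-III. Klra4 and Klra8 were at 0 in all libraries.

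Of the 6 serpins, 5 passed the filter, and Serpina3f did not. For R7-II versus R7-I, 4 of the 5 tested passed the threshold, against 56.1% of all genes. Serpinb6a and Serpinb1a were higher in R7-II, where 40.6% of all genes were called higher, and Serpinb6b and Serpinb9 were lower, where 15.5% were called lower. Serpinb1a passed the filter only through R7-II replicate 1, so its calls here and relative to R7-III are not independent of the filter. With median-of-ratios scaling the shares of all genes were 25.2% higher and 29.4% lower. For R7-II versus R7-III, 4 of 5 passed, against 53.6% of all genes, with Serpinb1a and Serpina3g higher (35.6% of all genes, 25% after median-of-ratios scaling) and Serpinb6b and Serpinb9 lower (18% and 28.2%). For R7-III versus R7-I, 1 of 5 passed, Serpinb6a, which was higher in R7-III, against 8.41% of all genes in either direction, 6.96% higher and 1.45% lower (4.86% and 3.72% after median-of-ratios scaling). So many genes were called in the comparisons of R7-II that a count of called serpins says little about the family, and the sizes of the changes tell more.

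**Figure D1:**
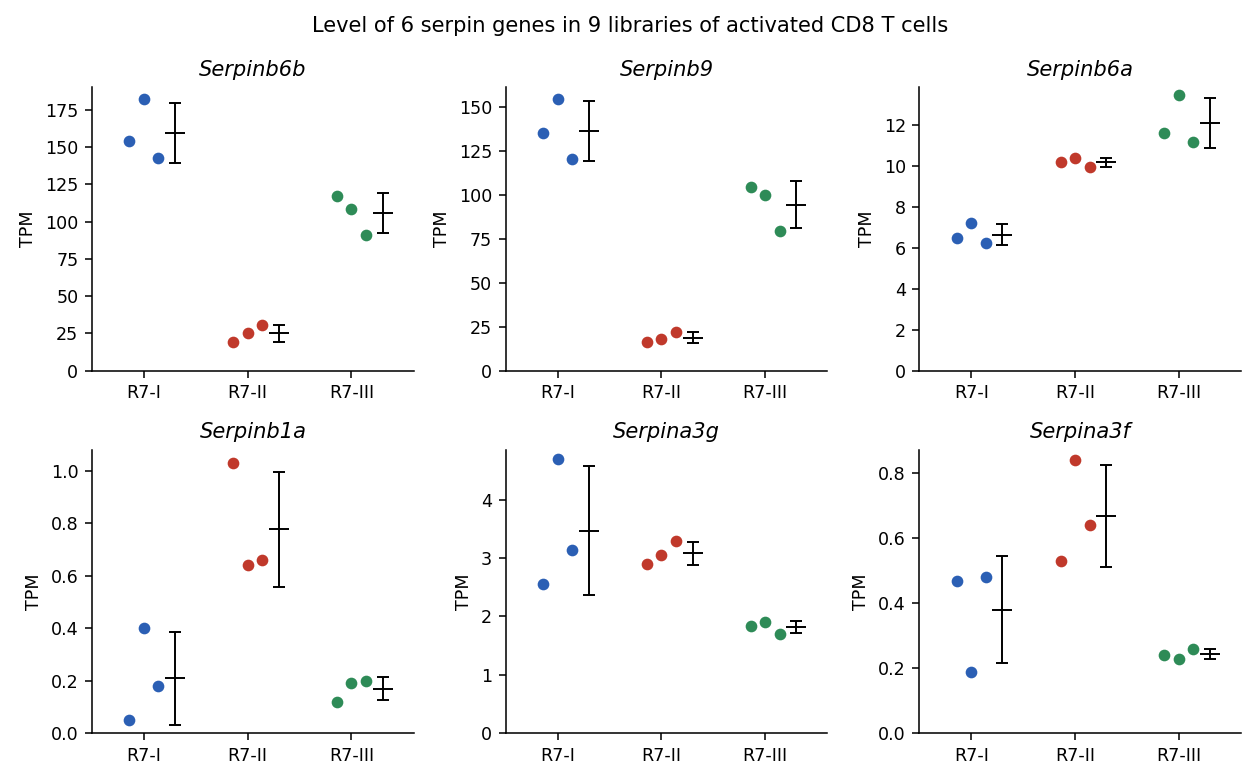
TPM of the 6 serpin genes (vertical axes from 0, each gene on its own scale) by clone (horizontal axis), with a point per library and a bar for the mean ± SD of 3 libraries. Serpinb6b and Serpinb9 fall from R7-I through R7-III to R7-II with no overlap, Serpinb6a runs from R7-I up to R7-III, and the other 3 genes stay below 5 TPM.

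Serpinb9 is the intracellular inhibitor of granzyme B, the main apoptosis-inducing protease of cytotoxic granules. Its level was 134.93, 154.08 and 120.17 TPM in the R7-I libraries, 104.16, 99.56 and 79.22 TPM for R7-III, and 16.15, 18.09 and 22.11 TPM in R7-II, each in the order of replicates 1, 2 and 3. The clones did not overlap, R7-I being highest and R7-II lowest, and 17.4% of all genes likewise had every R7-II library below the other 6. The mean was 136 ± 17.0 TPM for R7-I, 94.3 ± 13.3 TPM for R7-III and 18.8 ± 3.04 TPM for R7-II (mean ± SD, n = 3 libraries each). The mean of R7-I was 7.26 times and that of R7-III 5.02 times that of R7-II. On the log2(TPM + 1) scale Serpinb9 fell by 2.80 in R7-II relative to R7-I (standard error 0.129, adjusted p = 6.59e-08) and fell by 2.27 relative to R7-III (adjusted p = 2.26e-07, limma with Benjamini-Hochberg adjustment). Counted from the lowest log2 fold change of the 11330 genes, Serpinb9 ranked 8 for R7-II versus R7-I and 36 for R7-II versus R7-III.

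Serpinb6b is an intracellular inhibitor of granzyme A, the tryptase of the same granules. It was at 153.95, 182.01 and 142.71 TPM for R7-I, 117.44, 108.8 and 91.27 TPM for R7-III, and 19.21, 25.37 and 30.37 TPM for R7-II, in replicate order. The clones kept the order seen for Serpinb9, again without overlap. Means were 160 ± 20.2, 106 ± 13.3 and 25.0 ± 5.59 TPM in R7-I, R7-III and R7-II (mean ± SD, n = 3 libraries each), so that R7-I had 6.39 times and R7-III 4.24 times the R7-II mean. On the log2(TPM + 1) scale Serpinb6b fell by 2.64 in R7-II relative to R7-I (standard error 0.149, adjusted p = 1.98e-07) and fell by 2.06 relative to R7-III (adjusted p = 9.83e-07, limma), ranking 9 and 56 from the lowest of all genes. The study had listed Serpinb6b on these samples among its genes most reduced in R7-II, so its direction here is not independent evidence.

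The step from R7-I to R7-III was smaller and did not pass the threshold for either gene. The ratio of mean TPM of R7-I over R7-III was 1.45 for Serpinb9 and 1.51 for Serpinb6b. The log2 fold change of R7-III relative to R7-I was -0.53 for Serpinb9 (95% confidence interval -0.82 to -0.25, adjusted p = 0.0171) and -0.59 for Serpinb6b (-0.92 to -0.26, adjusted p = 0.0206, limma). Both values sat near the threshold. Serpinb6b passed when R7-II was not in the fit (adjusted p = 0.00855) and without R7-II replicate 1 (0.00577) or 3 (0.00960), and Serpinb9 without R7-II replicate 3 (0.00955), with adjusted p from limma up to 0.0791 and 0.0648 under other alternatives. Libraries without overlap in this direction occurred in 12.4% of all genes between R7-III and R7-I, and the order R7-I above R7-III above R7-II with no overlap at all in 3.01%.

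The profiles of Serpinb6b and Serpinb9 over the 9 libraries were nearly the same. With each gene centred on its own mean, their root mean square difference in log2(TPM + 1) was 0.111, and each was nearer to the other than to any of the other genes tested, whose median distance was 1.23 from Serpinb6b and 1.30 from Serpinb9. After its partner, Serpinb6b was nearest to Ifng, the gene of interferon gamma (0.281; 149, 122 and 36.6 TPM in R7-I, R7-III and R7-II), and to Gzmb, the gene of granzyme B (0.297). Serpinb9 was nearest to Gzmb (0.260) and to Tnfsf11, the gene of the cytokine RANKL (0.346; 78.1, 92.0 and 13.7 TPM). The points share their libraries, and all these genes were low in R7-II. Within a library, the ratio of Serpinb6b to Serpinb9 was 1.17 ± 0.0253 in R7-I, 1.12 ± 0.0298 in R7-III and 1.32 ± 0.116 in R7-II (mean ± SD, n = 3), while both levels moved more than 4-fold between clones. The 2 genes also shared the rank of their replicates in part, since replicate 3 was lowest for both in R7-I and R7-III and replicate 1 was lowest for both in R7-II.

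**Figure D2:**
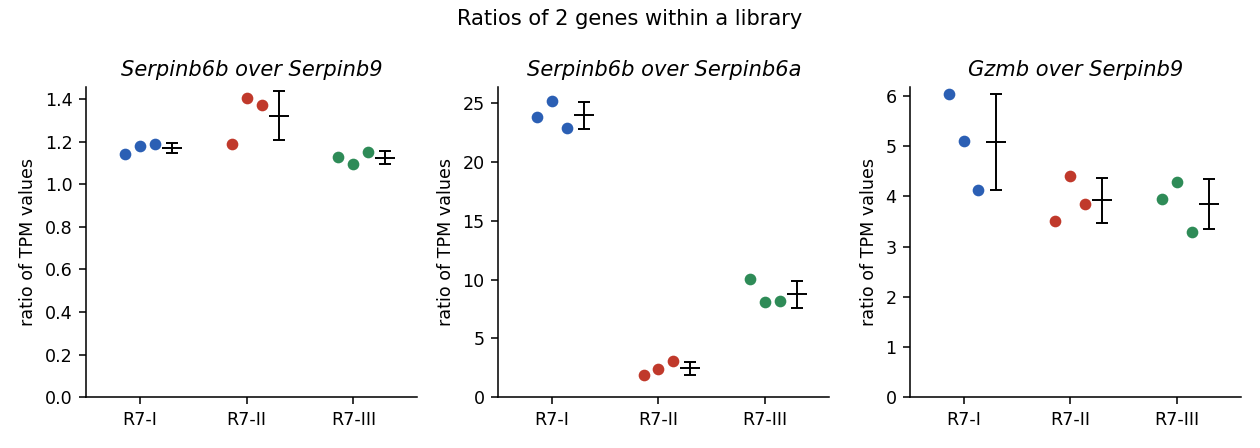
Ratio of 2 genes' TPM values within each library (vertical axes from 0) for Serpinb6b over Serpinb9, Serpinb6b over Serpinb6a and Gzmb over Serpinb9, by clone, with a point per library and the mean ± SD of 3. The first ratio stays between 1.09 and 1.40, the second falls from 22.9 to 25.2 in R7-I to 1.89 to 3.04 in R7-II, and the third overlaps between R7-I and the other clones.

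Serpinb6b and Serpinb9 lie 18.0 kb apart in the clade B serpin cluster of chromosome 13, from 32956811 to 32979067 and from 32997061 to 33017955 (GRCm38). Their neighbours there were low or changed less. Serpinb1c, 16.2 kb below Serpinb6b, was at 0.257, 0.313 and 0.993 TPM in R7-I, R7-III and R7-II, higher in R7-II relative to R7-I (log2 fold change 0.68, adjusted p = 0.00298) and relative to R7-III (0.61, adjusted p = 0.00564, limma). Serpinb1c entered the test only through R7-II replicate 3, its 1 library above 1 TPM (1.11 TPM), and was not tested without it. It lost both calls with quantile normalization (adjusted p = 0.0607 and 0.0695) or without R7-II replicate 1 (0.0103 and 0.0175), as well as without R7-I replicate 1 or 2 in the former (0.0150 and 0.0134) and without R7-III replicate 1 or 2 in the latter (0.0273 and 0.0193, limma). Serpinb9b and Serpinb1b had means between 0.0433 and 0.62 TPM and were not tested, and Serpinb9c and Serpinb9d were listed at 0 in every library. Wrnip1, a DNA damage response ATPase gene 19.5 kb below Serpinb1a, did not pass in any comparison (log2 fold change of R7-II -0.08 relative to R7-I and -0.06 relative to R7-III), but was lower in R7-II with median-of-ratios scaling (-0.26 and -0.19, adjusted p = 0.000254 and 0.00193) and with quantile normalization (-0.19 and -0.15, adjusted p = 0.00238 and 0.00831, limma). No read-length stretch of 100 bases in the annotated transcripts of Serpinb6b, Serpinb9 or Serpinb1a (GENCODE M21) was found in a transcript of another gene.

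**Figure D3:**
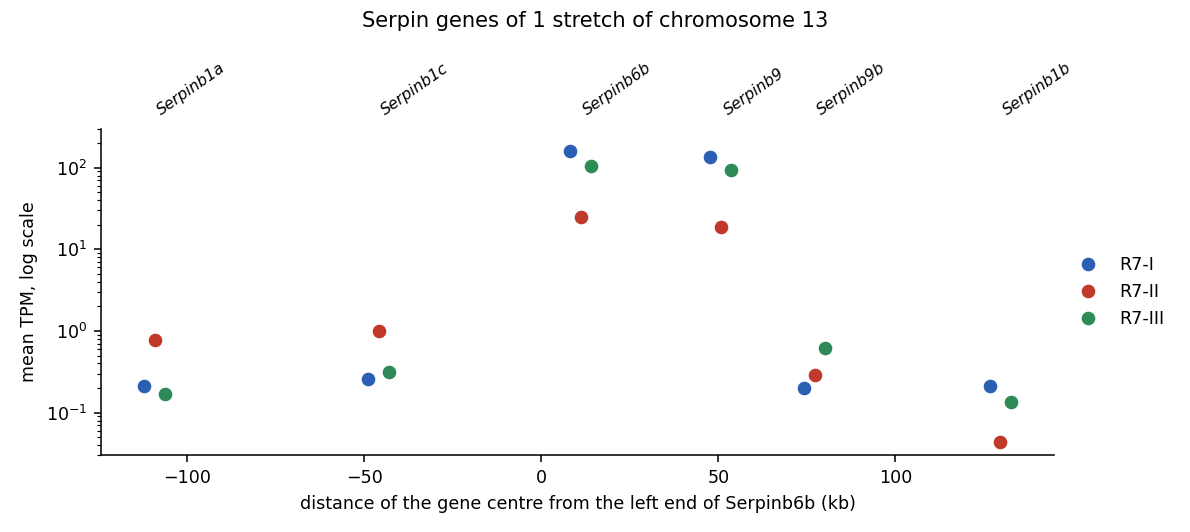
Mean TPM (vertical axis, log scale) of the serpin genes along a stretch of chromosome 13 against the distance of each gene's centre from the left end of Serpinb6b in kb, with a point per clone. Serpinb6b and Serpinb9 stand between 18.8 and 160 TPM with R7-II lowest, and the other genes shown are below 1 TPM. Genes at 0 in all clones are not drawn.

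Serpinb6a, the broadly expressed relative of Serpinb6b that inhibits trypsin-like proteases and cathepsin G, had another order. It was at 6.47, 7.23 and 6.24 TPM for R7-I, 10.18, 10.41 and 9.98 TPM for R7-II, and 11.64, 13.49 and 11.19 TPM for R7-III. R7-I was lowest and R7-III highest, with no overlap between any clones, an order found without overlap in 0.918% of all genes. Means were 6.65 ± 0.518, 10.2 ± 0.215 and 12.1 ± 1.22 TPM in the same order (mean ± SD, n = 3 libraries each). Serpinb6a was higher in R7-III than in R7-I by a log2 fold change of 0.78 (standard error 0.0801, adjusted p = 0.000170), ranking 191 from the highest of 11330 genes, and higher in R7-II relative to R7-I by 0.55 (adjusted p = 0.000129, limma). The difference between R7-II and R7-III, at -0.22, did not pass (adjusted p = 0.0288, 95% confidence interval -0.40 to -0.047), but did with median-of-ratios scaling (-0.35, adjusted p = 0.00412) and quantile normalization (-0.43, adjusted p = 0.00123, limma), and the call of R7-II relative to R7-I was lost with the latter (0.22, adjusted p = 0.0403).

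Serpinb6b exceeded Serpinb6a by a ratio of TPM of 23.9 ± 1.16 in R7-I, 8.77 ± 1.14 in R7-III and 2.46 ± 0.578 in R7-II (mean ± SD, n = 3), with no overlap between clones. Serpinb6a lies on chromosome 13 from 33917918 to 34002794, 900 kb above Serpinb9 with no other tested gene between them. Genes that overlap the span of Serpinb6a were not considered as neighbours. The nearest tested gene wholly beyond that span on the far side was Bphl, which codes for a serine hydrolase and lies 34.8 kb away. Bphl was also higher in R7-II relative to R7-I (0.58, adjusted p = 0.000154) and to R7-III (0.31, adjusted p = 0.00931). It did not pass for R7-III versus R7-I (0.27, adjusted p = 0.0499, limma). The R7-III call of Bphl was lost in 12 alternatives, among them median-of-ratios scaling (adjusted p = 0.0668) and leaving out R7-I replicate 3 (0.0138), R7-II replicate 1, 2 or 3 (0.0277, 0.0131 and 0.0242) or R7-III replicate 1, 2 or 3 (0.0222, 0.0185 and 0.0376, limma), and the R7-I call with quantile normalization (0.0465). The nearest profiles to Serpinb6a over all genes were those of Cox18, a mitochondrial insertase gene (0.0813), and Rad51c, a recombination gene (0.0973). Of 6029 stretches of 100 bases in Serpinb6a transcripts (GENCODE M21), 1197 (19.9%) also occur in transcripts annotated to 1110046J04Rik, Nqo2 or Ripk1. Part of its reads could therefore be split between genes. The values were quantified on RefSeq genes, so this share does not measure how uncertain its level is.

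Serpinb1a, known as an inhibitor of the neutrophil proteases elastase, proteinase 3 and cathepsin G, was close to the lower end of detection. It was at 0.05, 0.4 and 0.18 TPM for R7-I, 1.03, 0.64 and 0.66 TPM for R7-II, and 0.12, 0.19 and 0.2 TPM for R7-III. Every R7-II library exceeded the other 6, as was the case for 41.7% of all genes, and R7-I and R7-III overlapped. The gene entered the test only through R7-II replicate 1, the 1 library above 1 TPM. On the log2 scale it was 0.56 higher in R7-II relative to R7-I (adjusted p = 0.00778) and 0.60 relative to R7-III (adjusted p = 0.00554), and the log2 fold change was -0.04 in R7-III relative to R7-I (95% confidence interval -0.38 to 0.30, adjusted p = 0.899, limma).

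Both calls of Serpinb1a were weak. Against R7-I, 12 of the 16 alternatives that gave a value lost the call, among them median-of-ratios scaling (adjusted p = 0.0131), quantile normalization (0.206) and a fit of only these clones (0.0170), and leaving out R7-I replicate 1 (0.0362) or 3 (0.0236), R7-II replicate 3 (0.0113) or R7-III replicate 1, 2 or 3 (0.0123, 0.0130 and 0.0125). Against R7-III 6 of 16 did, among them leaving out R7-III replicate 1, 2 or 3 (adjusted p = 0.0221, 0.0163 and 0.0147, limma). The myeloid, B cell, MHC class II and neutrophil marker sums given above were also higher in R7-II. Its replicates 1, 2 and 3 had 34.6, 17.5 and 70.3 TPM of myeloid and 20.3, 19.0 and 31.0 TPM of neutrophil markers. In the same order they had 73.6, 35.3 and 56.2 TPM of B cell and 190, 116 and 187 TPM of MHC class II genes. The part of such cells in the levels of Serpinb1a or of the other serpins higher in R7-II was not tested. On the log2(TPM + 1) scale, which understates differences of low genes, the nearest profiles to Serpinb1a were those of Rhbdf2 and Zfp14. Rhbdf2, an inactive rhomboid protease gene (0.0808), was at 7.82, 12.1 and 7.62 TPM in R7-I, R7-II and R7-III. The zinc finger gene Zfp14 (0.0852) was at 1.04, 1.78 and 0.917 TPM, and Serpinb1a at 0.21, 0.777 and 0.17 TPM.

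Serpina3g (Spi2A) is a cytosolic inhibitor of lysosomal cathepsins such as cathepsin B that is inducible by interferon and NF-kappa-B. It was at 2.56, 4.7 and 3.14 TPM for R7-I, 2.9, 3.05 and 3.29 TPM for R7-II, and 1.84, 1.9 and 1.7 TPM for R7-III. The R7-III libraries lay below those of R7-I without overlap, as in 12.4% of all genes, and also below those of R7-II. The share of all genes with R7-III below both other clones was not computed. The R7-II libraries lay within the range of R7-I. Means in the same order were 3.47 ± 1.11, 3.08 ± 0.197 and 1.81 ± 0.103 TPM (mean ± SD, n = 3 libraries each). Serpina3g had a log2 fold change of 0.54 in R7-II relative to R7-III (adjusted p = 0.00917), -0.64 in R7-III relative to R7-I (95% confidence interval -0.97 to -0.31, adjusted p = 0.0151) and -0.10 in R7-II relative to R7-I (-0.44 to 0.23, adjusted p = 0.558, limma).

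The call of Serpina3g in R7-II relative to R7-III was also weak. It was lost in 12 of 18 alternatives, among them median-of-ratios scaling (0.44, adjusted p = 0.0282), quantile normalization (0.35, adjusted p = 0.0608), leaving out R7-I replicate 3 (adjusted p = 0.0135) and leaving out R7-II replicate 1, 2 or 3 (0.0176, 0.0200 and 0.0288) or R7-III replicate 1, 2 or 3 (0.0243, 0.0210 and 0.0306, limma). Serpina3g passed between R7-III and R7-I after quantile normalization (adjusted p = 0.00628) and without R7-I replicate 1 (0.00862). R7-I replicate 2, at 4.7 TPM, was its highest library, and without it the log2 fold change of R7-II relative to R7-I turned to 0.087 (adjusted p = 0.525). Its nearest profiles were those of Ptprf, a receptor tyrosine phosphatase gene (0.153), and Alad, a haem synthesis gene (0.178).

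Serpina3f, a close relative of Serpina3g whose inhibitory targets are less well known, was below 1 TPM throughout. It was at 0.47, 0.19 and 0.48 TPM for R7-I, 0.53, 0.84 and 0.64 TPM for R7-II, and 0.24, 0.23 and 0.26 TPM for R7-III. R7-II was above the other 6 libraries, which also held for 41.7% of the genes tested, and R7-I and R7-III overlapped. With no filter on low genes, it was 0.28 higher on the log2 scale in R7-II relative to R7-I (adjusted p = 0.0364) and 0.42 relative to R7-III (adjusted p = 0.00545), with -0.14 in R7-III relative to R7-I (adjusted p = 0.424, limma). Serpina3f lies on chromosome 12 from 104214544 to 104221129 and Serpina3g 15.0 kb away, from 104236147 to 104241939 (GRCm38). The tested genes next to this pair were Ifi27l2a, an interferon-inducible gene 771 kb below Serpina3f, and Dicer1, the gene of the microRNA-processing enzyme 446 kb above Serpina3g, and neither passed in any comparison, except that Ifi27l2a was lower in R7-II relative to R7-III without R7-II replicate 3 (-0.94, adjusted p = 0.00275, limma). The 2 serpins share 20 stretches of 100 bases, and 3.4% and 3.49% of their stretches occur in some other gene of the Serpina3 cluster or a pseudogene of it, so reads could be split between them.

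**Figure D4:**
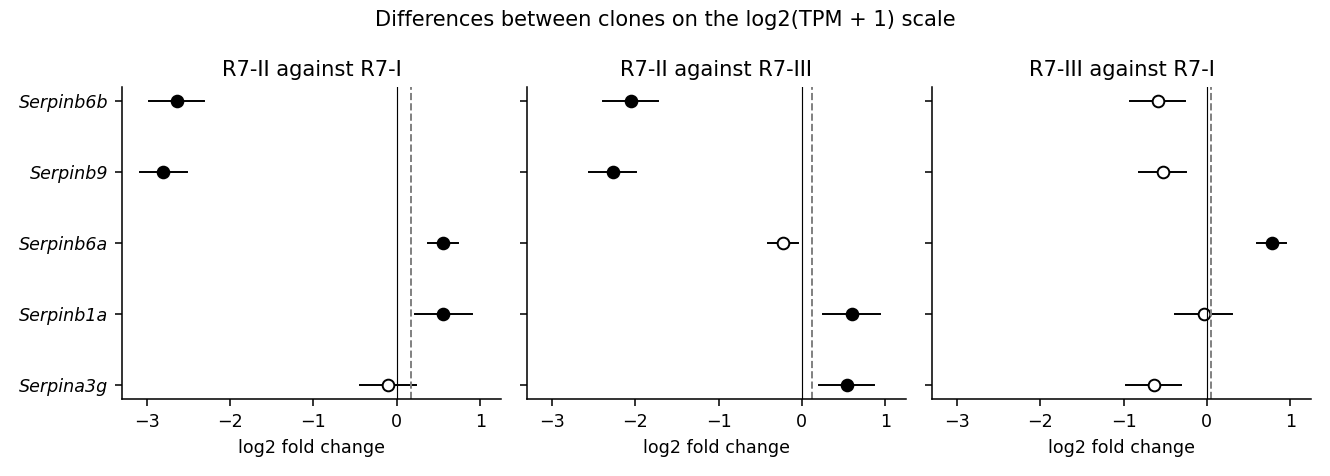
Log2 fold change on the log2(TPM + 1) scale (horizontal axis) with its 95% confidence interval from limma for the serpin genes tested, in a panel for each of the 3 comparisons, with filled points for an adjusted p of 0.01 or less, open points otherwise and the median of all genes as a dashed line. Serpinb9 and Serpinb6b lie between -2.80 and -2.06 in both comparisons of R7-II, and the other members lie between -0.64 and 0.78.

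Summed over all 63 serpin symbols, serpin mRNA was 332 ± 36.2 TPM for R7-I, 254 ± 32.8 TPM for R7-III and 85.7 ± 9.76 TPM for R7-II (mean ± SD, n = 3 libraries each), with no overlap. Serpinb6b and Serpinb9 made up 86.7% to 90.5% of it in R7-I, 77.5% to 80.2% in R7-III and 47.5% to 57.1% in R7-II. The 6 genes together summed to 273 to 349, 184 to 235 and 50 to 67.1 TPM in the order R7-I, R7-III and R7-II. Of the 63 symbols, 39 were listed at 0 in every library, 14 were above 0 but never above 1 TPM, and 10 passed the filter, 5 of them among the 6 followed here.

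Of the other serpins tested, 4 are described, Serpinb1c among them, of which 2 were called higher and 0 lower in R7-II relative to R7-I as well as relative to R7-III. Of these 2, Serpinb1c had passed the filter only through R7-II. For R7-III versus R7-I 0 of these 4 passed in limma. The largest of them was Serpine2, an inhibitor of thrombin and plasminogen activators, at 20.8 ± 4.69, 21.4 ± 4.19 and 33.0 ± 6.60 TPM in R7-I, R7-II and R7-III. It did not pass (log2 fold change 0.04, -0.60 and 0.64 in R7-II relative to R7-I, R7-II relative to R7-III and R7-III relative to R7-I, adjusted p = 0.842, 0.0126 and 0.0311), though it did between R7-II and R7-III with median-of-ratios scaling (adjusted p = 0.00715), with quantile normalization (0.00593) and without R7-I replicate 3 (0.00699), R7-II replicate 2 (0.00468) or R7-III replicate 3 (0.00508, limma). Serpini1, the gene of neuroserpin, was at 0.753, 1.86 and 0.993 TPM in R7-I, R7-II and R7-III and higher in R7-II relative to R7-I (0.70, adjusted p = 0.000273) and R7-III (0.52, adjusted p = 0.00214, limma), the latter lost without R7-III replicate 2 (adjusted p = 0.0114) and both with quantile normalization (0.0182 and 0.0498). Serpinf1, the gene of pigment epithelium-derived factor, was at 0.837, 0.68 and 1.30 TPM and passed in no comparison.

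**Figure D5:**
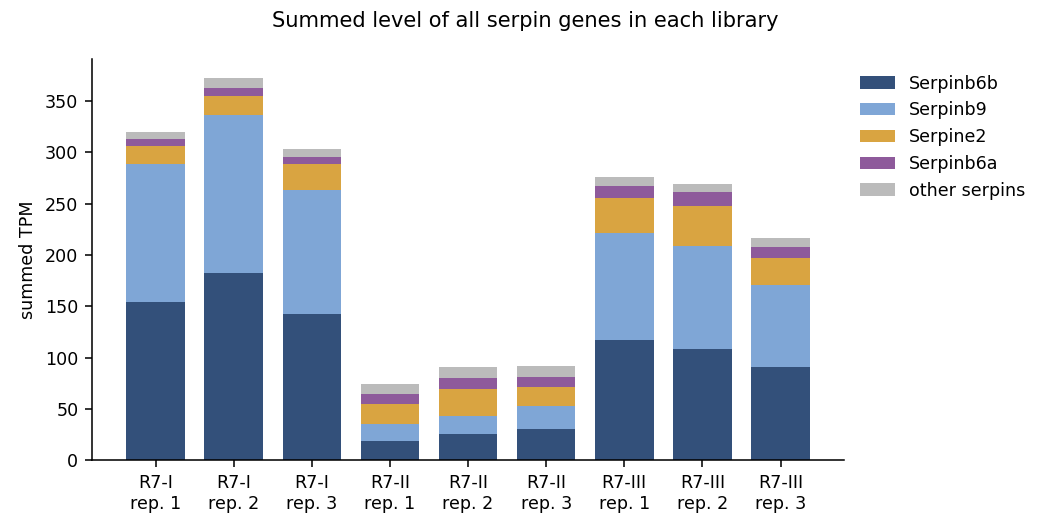
Summed TPM of all serpin genes in each of the 9 libraries (vertical axis from 0), stacked by gene. The R7-II libraries reach 74.5 to 91.9 TPM, the R7-III libraries 216 to 276 and the R7-I libraries 303 to 373, and most of the difference is in the parts of Serpinb6b and Serpinb9.

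The proteases that these serpins are known to inhibit were read beside them. Gzmb, whose product Serpinb9 inhibits, was at 813.31, 784.84 and 496.29 TPM for R7-I, 410.48, 425.98 and 261.16 TPM for R7-III, and 56.53, 79.62 and 85.16 TPM for R7-II. The clones stood in the order of Serpinb9, with no overlap. Its log2 fold change was -3.21 in R7-II relative to R7-I (adjusted p = 9.23e-07), -2.28 in R7-II relative to R7-III (adjusted p = 1.03e-05) and -0.93 in R7-III relative to R7-I (adjusted p = 0.0184, which became 0.00786 without R7-I replicate 3, limma). The ratio of Gzmb to Serpinb9 within a library was 5.08 ± 0.949 in R7-I, 3.92 ± 0.454 in R7-II and 3.84 ± 0.499 in R7-III (mean ± SD, n = 3), and the clones overlapped. In R7-I and R7-III replicate 3 had the lowest Gzmb as well as the lowest Serpinb6b and Serpinb9, and in R7-II replicate 1 did.

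Gzma, whose product Serpinb6b inhibits, was not found at a matching level. It was at 0.607 TPM for R7-I, 1.05 TPM for R7-II and 0.127 TPM for R7-III on average. Gzma entered the test only through R7-II replicates 2 and 3, at 1.41 and 1.06 TPM, and was called higher in R7-II relative to R7-III (log2 fold change 0.86, adjusted p = 0.00219), which was lost without R7-III replicate 3 (adjusted p = 0.0106) and with quantile normalization (0.0242, limma). Elane and Prtn3, the genes of neutrophil elastase and proteinase 3, were listed at 0 in every library, and Ctsg, the gene of cathepsin G, was listed at 0 except in R7-II replicates 2 and 3 (0.1 and 0.35 TPM). Of the lysosomal cathepsins linked to Serpina3g, Ctsb was at 21.9, 33.7 and 23.4 TPM in R7-I, R7-II and R7-III, higher in R7-II against both (log2 fold change 0.60 and 0.50, adjusted p = 1.41e-06 and 4.70e-06). Ctsl was at 12.5, 8.81 and 12.1 TPM and did not pass (-0.48 and -0.45, adjusted p = 0.0123 and 0.0184), but passed with median-of-ratios scaling (-0.65 and -0.57), with quantile normalization (-0.77 and -0.64) and without R7-II replicate 3 (-0.67 and -0.64, limma).

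Over the list of 35 proteases (granzymes, cathepsins, caspases, calpains and others), 23 were tested. Relative to R7-I, R7-II had 10 called higher and 5 lower, beside 40.6% and 15.5% of all genes. Relative to R7-III it had 11 higher and 4 lower, beside 35.6% and 18%. Of those called higher, Ctsh and Gzmm in both comparisons, Lgmn relative to R7-I and Gzma relative to R7-III passed the filter only through R7-II. Gzmc, called lower in R7-II and in R7-III relative to R7-I, passed the filter only through R7-I. R7-III relative to R7-I had 4 higher and 1 lower, beside 6.96% and 1.45%, and these became 2 higher without R7-I replicate 1, 0 lower without R7-I replicate 1 or 2 or R7-III replicate 2 or 3, and 2 lower without R7-I replicate 3. The count of 4 lower in R7-II relative to R7-III became 7 with quantile normalization. Their median log2 fold changes were 0.33, 0.24 and 0.094, beside 0.17, 0.12 and 0.045 over all genes. The most abundant besides the targets were Ctsz (97.6, 80.6 and 97.9 TPM in R7-I, R7-II and R7-III), lower in R7-II against both (log2 fold change -0.27 and -0.28), Ctsd, the aspartic protease of lysosomes (65.3, 163 and 69.4 TPM), higher in both (1.31 and 1.22, adjusted p = 3.33e-08 and 6.59e-08), and Ctsc, the activator of granzyme proenzymes (60.2, 56.6 and 59.2 TPM). Ctsc did not pass in R7-II (-0.09 and -0.06), but was lower with median-of-ratios scaling (-0.27 and -0.19, adjusted p = 0.000343 and 0.00293) and with quantile normalization (-0.22 and -0.17, adjusted p = 0.00144 and 0.00702, limma).

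Of 24 protease inhibitors of other families, 16 were tested. Relative to R7-I, R7-II had 7 called higher and 1 lower, beside 40.6% and 15.5% of all genes. Relative to R7-III it had 7 higher and 2 lower, beside 35.6% and 18%. Slpi, called higher in both comparisons, passed the filter only through R7-II. R7-III relative to R7-I had 1 higher and 0 lower, beside 6.96% and 1.45%, and the median log2 fold changes were 0.23, 0.22 and 0.053. The lower counts of R7-II became 4 and 4 with median-of-ratios scaling, the former 2 without R7-II replicate 1 and the latter 1 without R7-III replicate 1, and the count higher than R7-I became 4 with quantile normalization. Cast, the gene of the calpain inhibitor calpastatin, was at 31.7, 84.2 and 32.6 TPM in R7-I, R7-II and R7-III (log2 fold change of R7-II 1.38 and 1.34, adjusted p = 3.93e-08 and 6.59e-08), and Timp2, a metalloprotease inhibitor gene, at 4.46, 21.5 and 4.96 TPM (2.04 and 1.91, adjusted p = 4.23e-08 and 7.11e-08). Both were opposite in direction to Serpinb6b and Serpinb9. Birc5, the gene of survivin and tied to cell division, was at 8.83, 2.41 and 23.3 TPM, lower in R7-II relative to R7-I (-1.51, adjusted p = 1.28e-05) and R7-III (-2.84, adjusted p = 2.01e-07) and higher in R7-III than in R7-I (1.33, adjusted p = 0.000412, limma).

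The most abundant of these inhibitors had small differences whose calls changed with the scaling. Pebp1, the gene of a Raf kinase inhibitor protein of the PEBP family, was at 497, 490 and 540 TPM (log2 fold change of R7-II -0.02 relative to R7-I and -0.14 relative to R7-III, adjusted p = 0.00291 for the latter, lost with quantile normalization at 0.514 and without R7-II replicate 1 or 3 or R7-III replicate 1 or 2 at 0.0109, 0.0115, 0.0143 and 0.0154). With median-of-ratios scaling Pebp1 was also lower in R7-II relative to R7-I (-0.21, adjusted p = 0.00148, limma). Cst7, the gene of cystatin F, an inhibitor of cathepsins in granules, was at 117, 103 and 119 TPM (-0.19 and -0.22, adjusted p = 0.0246 and 0.0123), and passed in both comparisons with median-of-ratios scaling (-0.38 and -0.35, adjusted p = 0.000682 and 0.00105) and without R7-II replicate 1 (0.00796 and 0.00445), and in the latter also without R7-II replicate 2 or 3 (0.00881 and 0.00842, limma). Cflar, the gene of the caspase-8 regulator c-FLIP, was at 89.9, 88.8 and 81.7 TPM and passed in no comparison, but was lower in R7-II relative to R7-I with median-of-ratios scaling (-0.20, adjusted p = 0.00129, limma).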

How the data were processed

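Libraries of sorted, ROP7-activated CD8 T cells from the 3 R7 clones were sequenced by the authors in 100-base single-end reads that do not mark strand, aligned to mm10 and quantified per RefSeq gene with RSEM 1.2.11, per the study's methods and the submitters' processing notes. The deposited values are TPM per gene symbol, rounded to 2 decimals by the authors. The authors tested with DESeq2 1.8.1 on counts; counts were not used here, and 0 value columns were left unmatched to a sample. No aligner is named in the labels or methods used. The reference is C57BL/6J and the mice are BALB/c, and no sequence variant was tested.

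Genes with a maximum TPM above 1 were tested on log2(TPM + 1) in limma 3.58.1 (R 4.3.3) with clone as the only term over the 9 libraries and moderation by a mean-variance trend, Benjamini-Hochberg adjustment and a threshold of 0.01. Descriptions used Python 3.11.15 with pandas 2.3.3, and figures matplotlib 3.10.9. Positions and promoters are from RefSeq GRCm38.p6 (a current or older symbol placed 99.5% of tested genes), and transcripts from GENCODE M21.

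Members, lists and tests were chosen with earlier results of these data known, and the motifs after the data were seen. The text names the 6 members, other serpins above 1 TPM, 7 known target proteases and the 3 most abundant others, the 3 most abundant inhibitors of other families and those past the threshold and 2-fold, the 2 nearest profiles of each member and its nearest tested neighbours; 1 other serpin is not reported here. Neighbours were tested genes lying wholly outside a member's span, so overlapping genes were left out. Marker lists were for T, B, myeloid, neutrophil, NK and CD4 T cells and MHC class II. The labels do not say whether replicate numbers pair the libraries, and they were not treated as pairs in the main fit. The correlations of deviations from the clone means lay between -0.0449 and 0.0888 for the 9 pairs of libraries with the same number. For the 18 pairs with different numbers they lay between -0.0948 and 0.0649. A shared day or batch was not tested. Alternatives were a pseudocount of 0.1 or 5, no filter, a filter of at least 1 TPM in every library, median-of-ratios scaling, quantile normalization, no trend, a threshold of 0.05, a fit without the third clone, a replicate block and the omission of each library.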

Additional observations from a re-analysis of the deposited data

How the results depend on the processing

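In both comparisons of R7-II, Serpinb6b and Serpinb9 kept their direction and passed the threshold under all 18 alternatives, with log2 fold changes of Serpinb6b from -2.83 to -2.47 against R7-I and -2.20 to -1.89 against R7-III, and of Serpinb9 from -2.98 to -2.57 and -2.41 to -2.06. The same held for Serpinb6a in R7-III against R7-I (0.55 to 0.85). Of 264 values of the members under the alternatives, 223 kept direction and side of the threshold and 41 did not, and of 901 values of other genes tested beside them, 819 did and 82 did not. No value of Serpinb1a could be had with a filter of 1 TPM in every library or without R7-II replicate 1, since it then did not pass the filter. Levels of the low genes are limited by TPM values rounded to 2 decimals. The exact depth of each library is also unknown, as the study gives only a typical number of reads per sample.

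The 4 serpins called between R7-II and R7-I became 2 with quantile normalization, and 3 to 4 with each library left out. The 4 called between R7-II and R7-III were 2 to 4 with each library left out (2 without R7-II replicate 1 or R7-III replicate 1, 2 or 3). The 1 called between R7-III and R7-I became 4 at an adjusted p of 0.05, 2 with only these clones in the fit and 2 with quantile normalization, and was 1 to 3 with each library left out (2 without R7-I replicate 1 or R7-II replicate 1, 3 without R7-II replicate 3). Fewer samples enter where a clone or library is left out, and otherwise the cause was not tested. Over all genes the counts ranged from 5429 to 7747, 5113 to 7571 and 436 to 2142, the last against 953, being 436 without R7-I replicate 1 and 2142 at an adjusted p of 0.05. With the replicate block, 3, 3 and 1 serpins were called (6015, 5786 and 733 of all genes), Serpinb1a losing both calls. The labels do not say whether the numbers pair the libraries.

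Directions turned only for values that had not passed. With each library left out, R7-II relative to R7-I ranged from -0.25 to 0.087 for Serpina3g (0.087 without R7-I replicate 2), from -0.11 to 0.21 for Serpine2, from -0.33 to 0.11 for Serpinf1, from -0.0413 to 0.0043 for Pebp1, from -0.068 to 0.016 for Cflar and from -0.42 to 0.33 for Ifi27l2a. R7-III relative to R7-I ranged from -0.14 to 0.071 for Serpinb1a (0.071 without R7-I replicate 2) and from -0.034 to 0.19 for Serpinb1c. Serpine2 in R7-II relative to R7-I was -0.14 with median-of-ratios scaling and -0.21 with quantile normalization, Pebp1 was 0.084 with the latter, and Cflar in R7-II relative to R7-III was -0.016 with the former. Dicer1 was -0.079 relative to R7-I and -0.022 relative to R7-III with median-of-ratios scaling, and -0.13 and -0.061 with quantile normalization.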
